A study of Mus musculus with 30 samples.

Results

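Glycolysis and the response to low oxygen were followed in the fracture callus through 37 genes. They were chosen by name, as enzymes, transporters and known targets of the hypoxia-inducible factors (HIF), with earlier results of these data known. All 37 were found among the 43629 genes of the deposited count table and were tested in every comparison. RNA-seq was performed on 30 calli, 1 per library and 3 mice per diet and day. All mice were male C57BL/6J, aged 20 weeks at an open tibial osteotomy that was fixed with an intramedullary nail. Lean mice received a lean diet and were harvested 3, 5, 7 or 10 days after fracture (d3 to d10). Mice with diet-induced obesity (DIO) received a high-fat diet until harvest on the same days and also on d14 or d21. Lean callus later than d10 was not analysed here, and diets were therefore compared up to d10. Libraries were made from poly(A) RNA and held 13247122 to 26365620 counts (median 16854427).

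Cells split glucose into pyruvate by glycolysis, and when oxygen is short much of that pyruvate leaves the cell as lactate. Oxygen is sensed by prolyl hydroxylases that mark the HIF alpha subunits for destruction. In low oxygen the subunits persist and switch on glucose transporters, glycolytic enzymes, angiogenic peptides and mitochondrial regulators. The growth plate and the soft callus are cartilages without vessels, and chondrocytes there are known to rely on glycolysis and on HIF-1 alpha. HIF protein, oxygen and metabolites were not measured in these files, only transcripts. In bulk tissue, fewer cells of a type and less RNA per cell cannot be told apart.

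HIF binds DNA at a short core, ACGTG or GCGTG. RefSeq promoter windows (GRCm38.p6), from 250 bases before to 50 after each start, were found for 34 of the 37 genes, Ero1l under its RefSeq symbol Ero1a. Ndrg1, Bnip3l and Epas1 had none. At least 1 core, read on both strands, stood in a window of 31 of the 34 genes (91.2%), against 46.7% of all 27025 genes with a window. The 34 genes were chosen partly as HIF targets, so this share is a description, and they had 52 windows in all. Counted by window, 78.8% of the 52 held a core, against 43.8% of all 32851. In the 250 bases before the start alone the shares were 91.2% and 41.5%. The share was 94.1% among the 17 genes that were higher in DIO callus on d7 (described below) and 88.2% among the 17 others with a window. A core is a match of letters, not a measured binding site. The 250 bases before the start are printed for 6 genes with a core there, those with the smallest p across the DIO time course. That was the comparison with most of the 37 genes called. Ak4 and Eno1 had several windows, and of these the one with most cores was printed, or the first of equal ones. Capitals mark each core, and CACGC and CACGT are cores read on the other strand. In CACGTG a core of each strand overlap.
Slc2a1: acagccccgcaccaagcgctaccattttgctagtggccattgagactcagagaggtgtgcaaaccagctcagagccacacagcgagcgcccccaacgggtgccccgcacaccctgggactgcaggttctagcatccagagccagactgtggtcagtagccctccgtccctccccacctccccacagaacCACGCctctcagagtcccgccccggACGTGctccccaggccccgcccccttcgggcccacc
Ak4: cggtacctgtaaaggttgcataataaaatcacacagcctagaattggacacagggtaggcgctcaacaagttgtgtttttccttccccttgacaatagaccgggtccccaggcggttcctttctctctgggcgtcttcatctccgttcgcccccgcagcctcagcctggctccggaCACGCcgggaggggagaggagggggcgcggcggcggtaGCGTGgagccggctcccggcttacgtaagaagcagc
Pfkl: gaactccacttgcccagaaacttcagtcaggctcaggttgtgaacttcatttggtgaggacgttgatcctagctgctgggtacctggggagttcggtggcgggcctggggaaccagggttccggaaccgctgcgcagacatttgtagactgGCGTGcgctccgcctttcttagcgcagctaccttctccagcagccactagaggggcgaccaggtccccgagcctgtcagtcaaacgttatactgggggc
Pgam1: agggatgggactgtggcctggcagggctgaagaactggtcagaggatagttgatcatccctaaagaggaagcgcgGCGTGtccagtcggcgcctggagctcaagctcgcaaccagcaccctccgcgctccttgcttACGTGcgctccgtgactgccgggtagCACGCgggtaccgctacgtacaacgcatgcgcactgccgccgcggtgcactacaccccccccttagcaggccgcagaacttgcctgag
Eno1: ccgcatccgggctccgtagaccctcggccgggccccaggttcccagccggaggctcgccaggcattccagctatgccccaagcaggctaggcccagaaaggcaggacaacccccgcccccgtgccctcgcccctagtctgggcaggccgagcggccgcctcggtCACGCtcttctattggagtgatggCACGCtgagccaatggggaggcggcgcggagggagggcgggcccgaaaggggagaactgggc
Bnip3: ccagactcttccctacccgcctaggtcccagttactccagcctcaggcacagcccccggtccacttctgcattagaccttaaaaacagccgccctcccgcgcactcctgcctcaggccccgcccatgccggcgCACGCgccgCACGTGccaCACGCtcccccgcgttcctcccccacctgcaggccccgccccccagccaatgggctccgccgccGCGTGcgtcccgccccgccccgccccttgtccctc
These windows lie on the gene strand at chr4:119108495-119108744 (Slc2a1, + strand), chr4:101419039-101419288 (Ak4, + strand), chr10:78009808-78010057 (Pfkl, - strand), chr19:41911621-41911870 (Pgam1, + strand), chr4:150236947-150237196 (Eno1, + strand) and chr7:138909507-138909756 (Bnip3, - strand). Bnip3, a mitochondrial protein that sends mitochondria to autophagy, had 5 cores, the most of the 6. Pfkl had 1.

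Levels are given in CPM, the counts of a gene scaled to library size on one scale for all 30 libraries. Fold changes come from the fit of each comparison, with its own scaling, so they need not equal the ratio of mean CPM. Of the 37 genes, 18 had their highest group mean in DIO d7, a group that held the highest mean of 10.2% of all genes tested over the 30 libraries. In turn, 15 had their lowest group mean in DIO d21, as did 27.9% of all genes. The map of levels by library shows both ends.

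**Figure D1:**
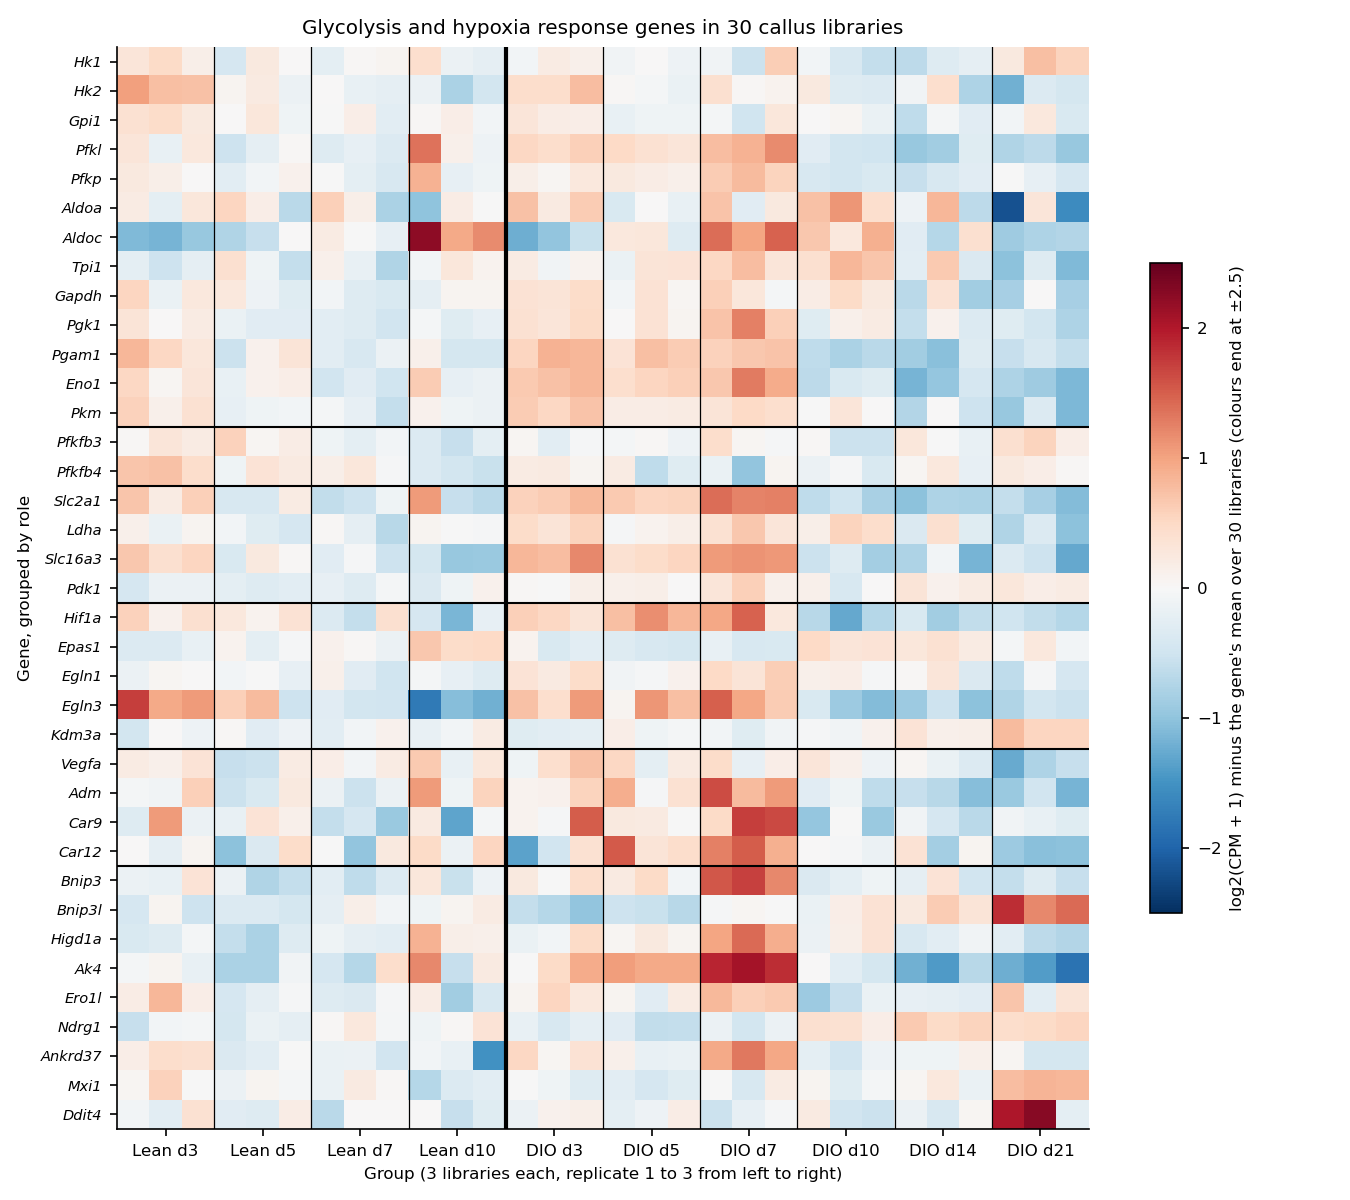
Levels of the 37 genes (rows, grouped by role) in the 30 libraries (columns, 3 per group), as log2(CPM + 1) minus each gene's mean over all libraries. Ak4, Bnip3, Slc2a1 and Higd1a are red in all 3 DIO d7 libraries, Bnip3l and Mxi1 in all 3 DIO d21 libraries, and Lean d10 replicate 1 is redder than the other Lean d10 libraries for Pfkl, Slc2a1 and Aldoc.

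The first question was whether diet altered these genes on each day. On d7, 17 of the 37 genes were called, all of them higher in DIO callus. Over all 15753 genes tested, 2.32% were called and 1.4% were called higher. They covered transport, glycolysis and HIF targets: 6 of 13 glycolytic enzymes, 2 of 4 genes of glucose, lactate and pyruvate handling, 3 of 4 angiogenic peptides and carbonic anhydrases, 5 of 9 mitochondrial and other targets, and 1 of 5 oxygen-sensing genes. Of the 37, 30 lay above 0 in log2 fold change, against 49.9% of all genes, and their median was 0.79 beside -0.0013 for all genes.

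Slc2a1, the glucose transporter GLUT1, stood at 22.7, 24.5 and 32.8 CPM in the 3 Lean d7 calli and at 95.2, 85.3 and 86.0 CPM in the 3 DIO d7 calli. The lowest DIO library was above every Lean library of that day, and the gene was 3.35-fold higher (log2 fold change 1.74, SE 0.19, adjusted p = 0.0055). Slc16a3, the lactate exporter MCT4, was at 68.8, 81.3 and 58.3 CPM in Lean and at 175, 183 and 179 CPM in DIO callus. The DIO libraries lay close together and apart from Lean (log2 fold change 1.38, SE 0.17, adjusted p = 0.0082). The remaining genes of this role, Ldha (lactate dehydrogenase A) and Pdk1 (which inhibits pyruvate dehydrogenase), were not called, with log2 fold changes of 0.75 and 0.57 and adjusted p of 0.14 for each.

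Among the enzymes, Pfkl, the liver-type phosphofructokinase of the committed step, was at 65.3, 70.7 and 64.4 CPM in Lean and at 141, 151 and 187 CPM in DIO d7 callus. The groups did not overlap (log2 fold change 1.27, SE 0.17, adjusted p = 0.011). Eno1 (enolase 1), Aldoc (aldolase C), Pgk1 (phosphoglycerate kinase 1), Pgam1 (phosphoglycerate mutase 1) and Pfkp (platelet phosphofructokinase) were also called, with log2 fold changes of 1.43, 1.42, 1.25, 0.96 and 0.91. The hexokinases Hk1 and Hk2, which open the pathway, were not called, at 0.13 and 0.32. Aldoa, the muscle aldolase and the most abundant of the 37 per kilobase of exon, was at 0.21 with a 95% interval from -0.59 to 1.00. Neither regulator of phosphofructokinase was called (Pfkfb3 0.32, Pfkfb4 -0.42).

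Bnip3 was at 26.7, 20.3 and 25.4 CPM in Lean and at 96.1, 107 and 75.0 CPM in DIO d7 callus. It had the smallest p of the 37 (log2 fold change 1.95, SE 0.19, adjusted p = 0.0047). Higd1a, a small protein of the mitochondrial inner membrane, was at 54.4, 50.6 and 48.9 CPM in Lean and at 118, 159 and 112 CPM in DIO callus. Its groups did not overlap either (log2 fold change 1.35, SE 0.18, adjusted p = 0.011). Ak4, a mitochondrial adenylate kinase, was at 5.56, 4.37 and 10.8 CPM in Lean and at 31.8, 36.2 and 30.7 CPM in DIO callus. Its fold was among the larger ones, at 4.77 (log2 fold change 2.25, SE 0.32, adjusted p = 0.015). Car9, a carbonic anhydrase of the cell surface, had the largest log2 fold change of the 37 genes on d7 (2.47, SE 0.40), from 1.52 to 2.60 CPM in Lean and from 5.77 to 14.9 CPM in DIO callus.

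The other called genes were Car12, a second surface carbonic anhydrase (1.43), Adm, the vasodilator peptide adrenomedullin (1.67), Ankrd37 (1.73), Ero1l, an oxidase of the endoplasmic reticulum (0.97), and Egln3, an oxygen-sensing prolyl hydroxylase (1.62). Vegfa, the main angiogenic growth factor, was not called, at 0.07 with a 95% interval from -0.37 to 0.51. Bnip3l, a relative of Bnip3 with a like role, was at 0.05 (-0.29 to 0.40). Hif1a, which encodes HIF-1 alpha, was at 1.11 (SE 0.33) with an adjusted p of 0.13, and its groups overlapped. In all, the groups did not overlap for 27 of the 37 genes, 25 of them higher in DIO callus, against 22% and 9.95% of all genes.

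**Figure D2:**
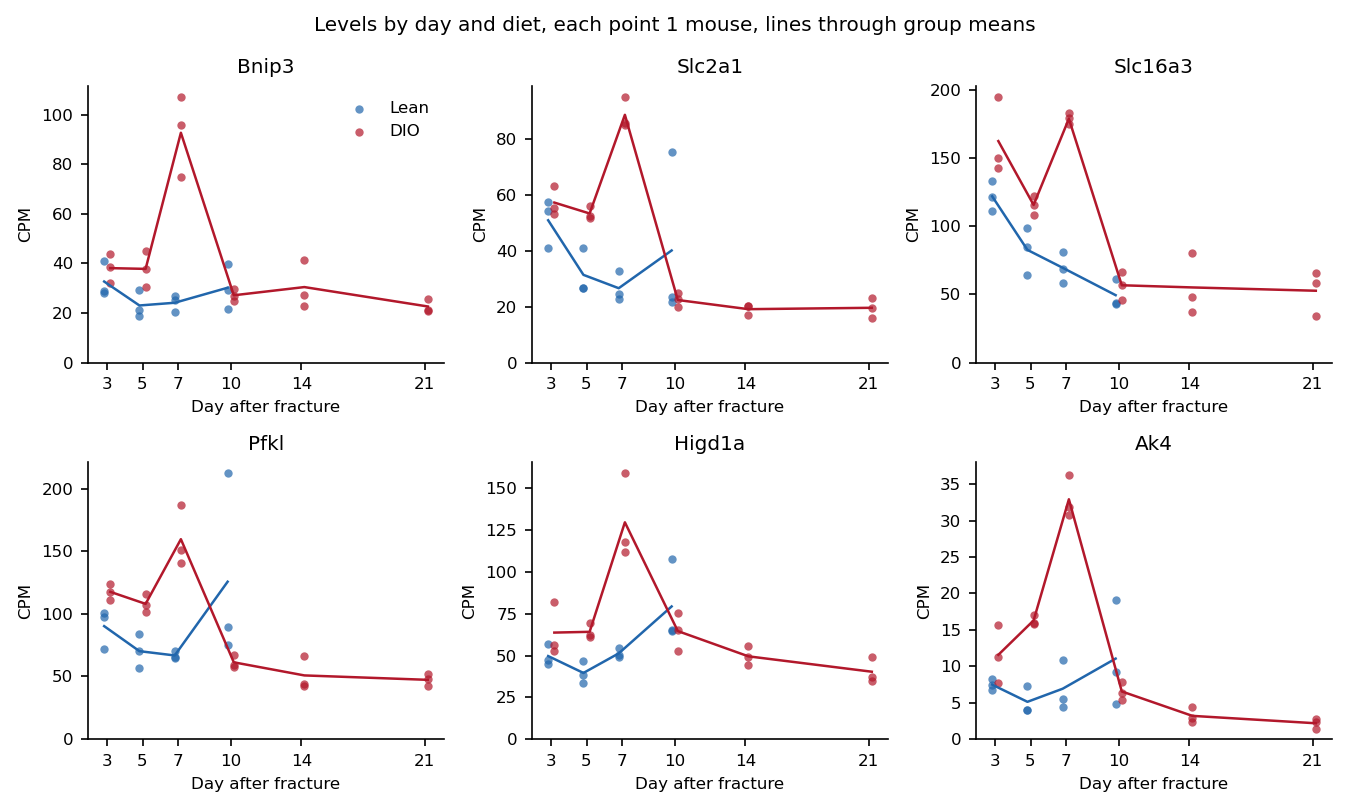
Levels in CPM by day after fracture for the 6 genes with the smallest p on d7, each point 1 mouse and lines through the means of 3 mice (blue Lean, red DIO). On d7 the 3 DIO points lie above the 3 Lean points in every panel, and on d10 they are far lower, for Slc2a1 at 19.8 to 24.8 CPM, and for Pfkl below all 3 Lean points.

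The number of calls on d7 depended on which mouse was left out, while all calls remaining were higher in DIO callus. Without Lean d7 replicate 1, 2 genes were called, without Lean d7 replicate 2, 3, and without Lean d7 replicate 3, 10. Leaving out DIO mice left 12 to 18, and the median log2 fold change over all 6 omissions ran from 0.66 to 0.92. Scaling by library totals alone left 16 calls, all higher, with the median of all genes at -0.15. That scaling turned the split of calls over all genes from 60.4% to 36.5% higher.

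The chondrocyte markers moved with these genes on d7. Their summed level over 16 genes was 6229 to 21378 CPM in Lean and 23922 to 49809 CPM in DIO d7 callus, and all 16 were above 0 in log2 fold change (median 1.97), with 6 called. Of the defining genes, Matn1, Epyc and Snorc were at 0 in at least 1 library of the 30. Markers of osteoclasts were lower (7 of 9 tested called, median -1.27), as were 3 of 14 of monocytes and macrophages (median -0.73), 3 of 14 of osteoblasts (-0.54) and 3 of 7 tested of adipocytes (-1.35). No endothelial (median -0.40), B lineage (-1.73), neutrophil (-0.64) or erythroid marker (-0.62) was above 0. Of these, 1 B lineage and 1 neutrophil marker were called. The 16 muscle markers had a median of 0.07. Their part in the result was not tested. Of the DIO d7 libraries only replicate 2 had a sum (23922) near that of other libraries, and its Slc2a1 was at 85.3 CPM. Slc2a1 was at 32.8, 23.4 and 21.8 CPM in Lean d7 replicate 3 and Lean d10 replicates 2 and 3 (sums 21378, 21324 and 19295), and at 56.1 and 51.7 CPM in DIO d5 replicates 1 and 2 (sums 20606 and 16263).

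**Figure D3:**
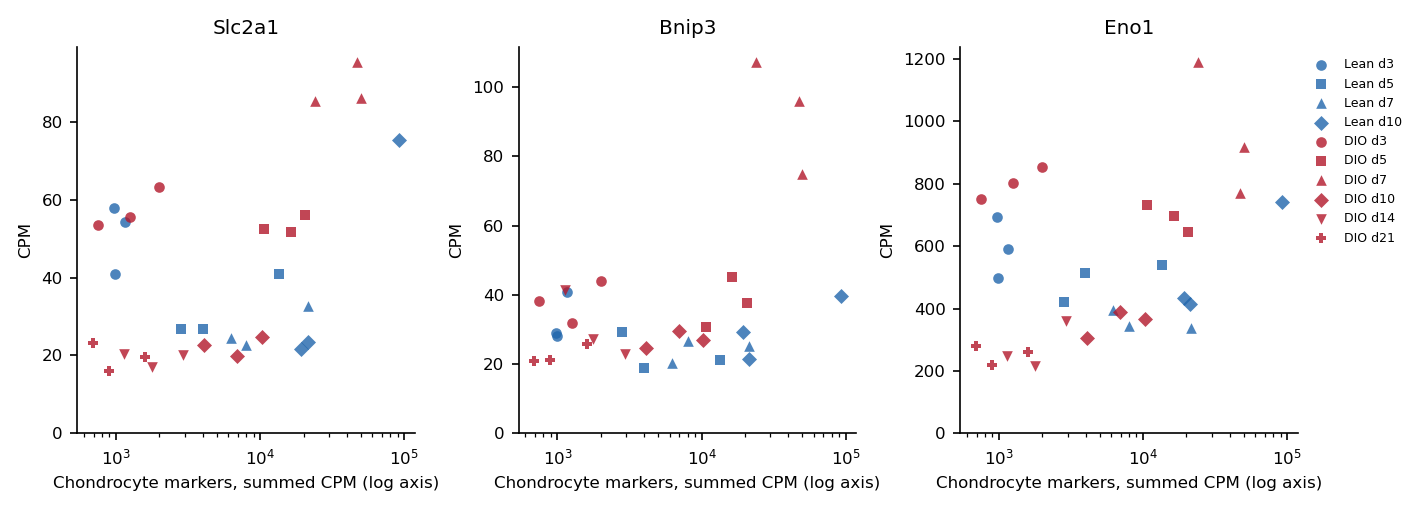
Slc2a1, Bnip3 and Eno1 (CPM) against the summed chondrocyte markers (CPM, log axis) in 30 libraries, coloured by diet and shaped by day. DIO d7 replicate 2 is at 85.3 CPM of Slc2a1 at a sum of 23922 CPM, no other library has a sum near those of DIO d7 replicates 1 and 3, and Lean d10 replicate 1, with the highest sum of 92385 CPM, has 75.4 CPM of Slc2a1.

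On the other days few genes or none were called between diets. On d3 edgeR called none of the 37 and none of 15772 genes (0%), 10 of the 37 had an unadjusted p under 0.05 (15.1% of all genes), and DESeq2 called 1. There 23 of the 37 were above 0 (51% of genes), and the groups did not overlap for 10 (21.1% of genes). On d5 Ak4 was the only one called (1.08% of genes were), at 4.06, 4.05 and 7.24 CPM in Lean and 17.1, 15.8 and 16 CPM in DIO callus (log2 fold change 1.66, SE 0.24, adjusted p = 0.038). That call was lost without Lean d5 replicate 2 or without any of the 3 DIO d5 mice, and without Lean d5 replicate 3 there were 5 calls. At an unadjusted p under 0.05 there were 17 of the 37 on d5, against 18.5% of all genes. Of the 37, 27 were above 0 on d5, against 51.1% of all genes, and their median was 0.25 beside 0.0071. The diets did not overlap for 18, 14 of them higher in DIO callus, against 23.2% and 10.8% of genes. The markers of chondrocytes were above 0 on d5 in 15 of 15 tested (median 1.2), while those of neutrophils (median -1.86), erythroid cells (-2.11) and monocytes and macrophages (-0.64) were below 0 in all but 1 gene, and 1 of all these markers was called. What part they had in the result was not tested.

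On d10 edgeR and DESeq2 called none of the 37, edgeR called none of 15341 genes (0%), and 7 of the 37 had an unadjusted p under 0.05 (7.05% of all genes). The median log2 fold change was 0.01, with 19 of 37 above 0 (52.2% of genes), and 11 did not overlap between diets, 5 of them higher in DIO callus (14.3% and 7.11% of genes). Pfkl, Adm and Aldoc, which were higher in DIO callus on d7, stood at -1.03, -1.04 and -0.99 on d10, none of them called. Lean d10 replicate 1 was apart from the others of its group, with a chondrocyte sum of 92385 CPM against 19295 and 21324. Its muscle markers summed to 1703 CPM against 23522 and 16502, and its Pfkl was at 212 CPM against 89.7 and 75.0. Without this library none of the 37 was called and their median was 0.04. Between diets on d10, 0 of 16 chondrocyte markers were above 0 (median -2.68). Above 0 were 16 of 16 muscle (1.30) and 9 of 9 tested adipocyte markers (1.78), none of them called. The part of these markers was not tested.

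**Figure D4:**
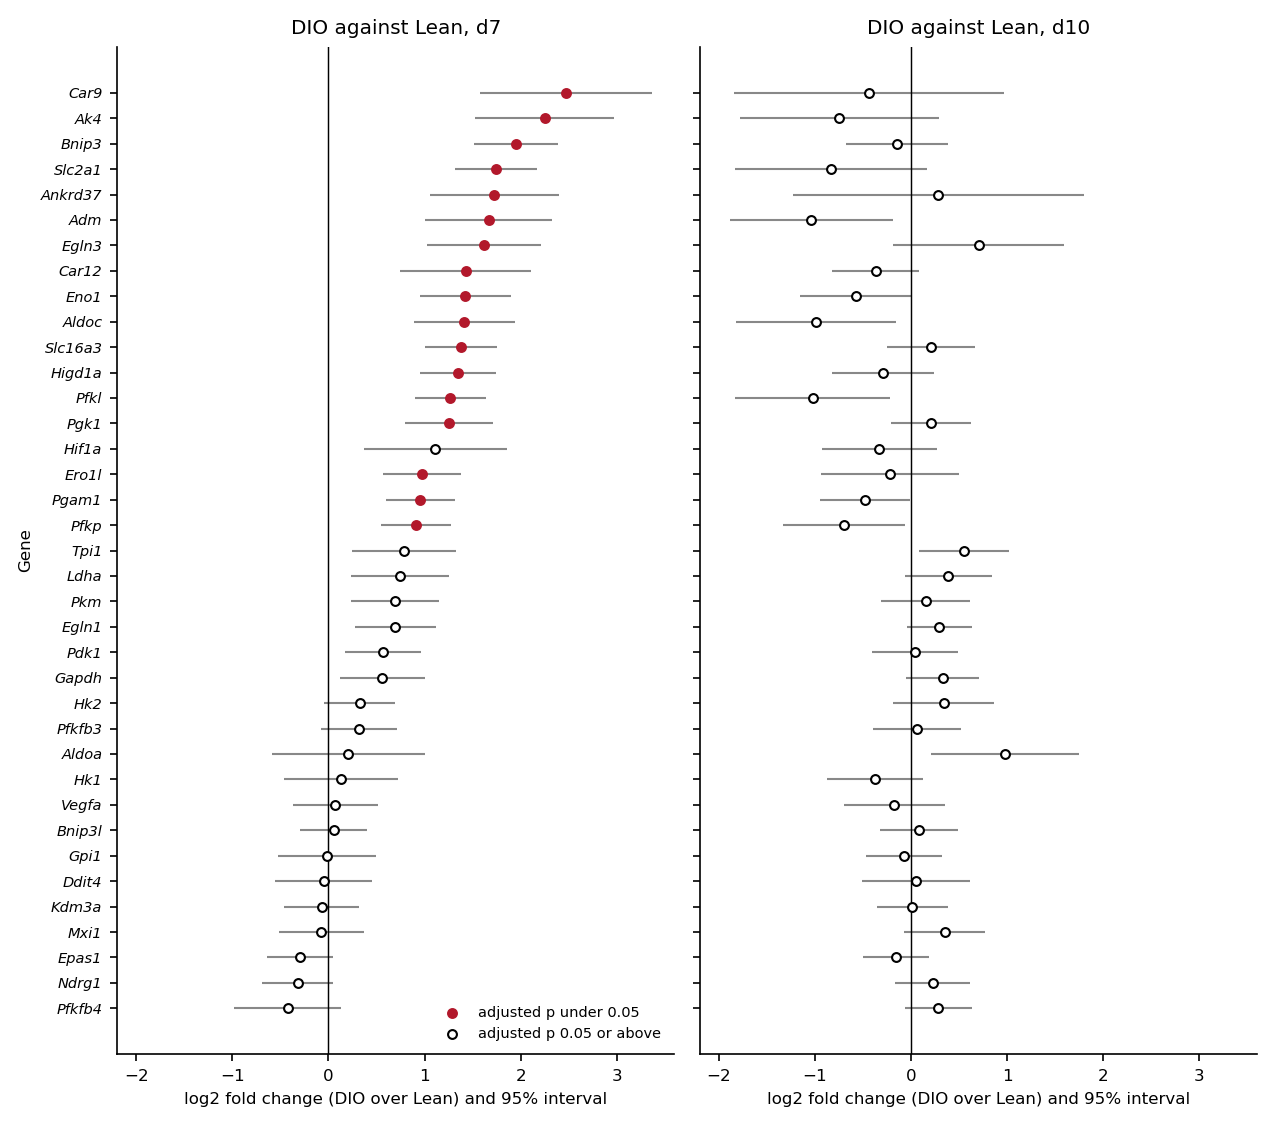
Log2 fold change of DIO over Lean callus with its 95% interval for the 37 genes, on d7 (left) and d10 (right), in the order of d7. Filled red points mark an adjusted p under 0.05: 17 on d7, all above 0, and none on d10, where the points lie on both sides of 0.

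A single fit to the 24 libraries up to d10 asked whether the diet difference itself changed with time. Over the 4 days it changed for 12 of the 37 genes, against 1.65% of 17057 genes. From d3 to d5, d5 to d7 and d3 to d10 the same fit called 0 of the 37 (0%, 0.00586% and 0.00586% of all genes). At an unadjusted p under 0.05 there were 2, 13 and 14, against 4.31%, 3.79% and 18.3% of genes. From d7 to d10 the diet difference changed for 14 genes, all toward lower in DIO callus, against 5.07% of all genes (3.37% toward lower). This count was added after its values were seen. The largest changes were in Ak4 (-3.01, SE 0.54), Car9 (-2.91, SE 0.82), Adm (-2.71, SE 0.50) and Slc2a1 (-2.58, SE 0.45). Hif1a changed too (-1.45, SE 0.40, adjusted p = 0.039), although it was not called on either day. Without Lean d10 replicate 1 these 4 changes were -2.36, -2.49, -2.35 and -1.75, that of Pfkl went from -2.3 to -1.68, and 12 of the 14 genes were called. Car9 and Hif1a were then not called (adjusted p = 0.15 and 0.11).

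The count over all 4 days was less stable. It was 0 without Lean d7 replicate 2 or DIO d10 replicate 1, 2 without DIO d10 replicate 2 or 3, 4 without Lean d7 replicate 1, 5 without Lean d10 replicate 1 and 7 without DIO d7 replicate 1. The count from d7 to d10 stayed between 12 and 16 under every omission. Scaling by library totals moved the median of all genes from 0.02 to 0.27 and left 12 calls, all toward lower, while the calls over all genes went from 33.5% to 64.3% toward higher. The chondrocyte markers changed with it, 13 of 16 called toward lower (median -4.87), and 7 of 10 osteoclast markers toward higher. Their part in the result was not tested.

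The time courses were then compared within each diet. In Lean callus 9 of the 37 genes differed between days, against 19% of 16471 genes (16 at an unadjusted p under 0.05, against 35.7%), and in DIO callus 32 did, against 59.1% of 16995 genes. The 2 courses differ in the number of days and of libraries, so the counts are not compared.

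In Lean callus edgeR called none of the 37 from d3 to d5 (0.449% of genes were, 0.00607% lower, and 9 of the 37 had an unadjusted p under 0.05, against 14.8%) or from d5 to d7 (0% of genes; 3 unadjusted, against 5.62%). Between these neighbouring days 10 and 6 of the 37 did not overlap, against 23% and 13.9% of genes, and 1 and 3 of them were higher on the later day, against 12.8% and 5.9%. From d3 to d10, 3 rose and 8 fell, against 29.3% of genes called, a share close to that of the 37. Of all genes 15.2% were called up and 14.1% down. Aldoc rose from 2.92, 2.72 and 3.34 CPM on d3 to 38.7, 15.2 and 17.9 CPM on d10 (log2 fold change 3.02, SE 0.37, adjusted p = 0.00033). The days did not overlap, and without Lean d10 replicate 1 the value was 2.49. Epas1, which encodes HIF-2 alpha, rose from 86.4, 87.4 and 97.4 CPM to 176, 153 and 156 CPM (0.86, SE 0.13, adjusted p = 0.0010), and Higd1a rose by 0.70.

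Egln3, itself a HIF target, fell from 32.7, 18.6 and 20.3 CPM on d3 to 2.00, 3.91 and 3.47 CPM on d10 (log2 fold change -2.91, SE 0.39, adjusted p = 0.00058). Hk2, the hexokinase induced by HIF, was at 116, 95.3 and 94.9 CPM on d3 and at 51.1, 32.3 and 40.8 CPM on d10 (-1.28, SE 0.17, adjusted p = 0.00060). The fall is seen in every d10 callus. Pfkfb4, a bifunctional enzyme that sets the activator of phosphofructokinase, went from 114, 118 and 95.5 CPM to 55.2, 50.8 and 47.4 CPM (-1.07, SE 0.15, adjusted p = 0.00060). Slc16a3 went from 133, 111 and 121 CPM to 61.5, 43.1 and 43.7 CPM (-1.28, SE 0.19, adjusted p = 0.0010). Hif1a, Pgam1, Mxi1 (a Myc antagonist) and Pfkfb3 fell as well, by 0.91, 0.78, 0.64 and 0.55 on the log2 scale.

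Over the same interval the chondrocyte markers rose (16 of 16 called, median 6.90), as did 9 of 10 osteoclast and 12 of 14 osteoblast markers, while 9 of 14 monocyte and macrophage and 7 of 13 neutrophil markers fell. Whether they had a part in it was not tested. With library totals alone, 2 of the 37 rose and 14 fell, and the calls over all genes went from 52% to 22.3% higher. From d7 to d10 Aldoc (1.70) and Epas1 (0.56) rose (2.73% of genes were called, 1.09% higher). Neither was called without Lean d10 replicate 1, without any of the 3 Lean d7 mice, without Lean d3 replicate 1 or without Lean d5 replicate 2, and 1 was called without each of the other Lean d3 and d5 mice. Without Lean d10 replicate 3 there were 4 calls. At an unadjusted p under 0.05 there were 10 (26% of genes), and 26 of the 37 were above 0 (49.3% of genes). With library totals alone 1 rose and 2 fell, their median went from 0.12 to -0.09, and the calls over all genes went from 39.8% to 10.4% higher.

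In DIO callus edgeR called none of the 37 from d3 to d5 (1.68% of genes were; 4 unadjusted, against 13.7%). From d5 to d7 Bnip3 rose from 37.6, 45.1 and 30.7 CPM to 96.1, 107 and 75.0 CPM (log2 fold change 1.31, SE 0.21, adjusted p = 0.042). It was 1 of only 3 genes called over the whole table (0.0177%), and 33 of the 37 were above 0, against 52% of all genes. The chondrocyte sum went from 10712 to 20606 CPM on d5 to 23922 to 49809 CPM on d7, without overlap, and 16 of 16 of its genes were above 0 (median 1.62), as were 11 of 11 erythroid (3.04) and 12 of 13 neutrophil genes (1.49), none of them called. Their part in the result was not tested.

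From d7 to d10 in DIO callus 17 of the 37 fell and 2 rose, against 13% of genes called, 7.01% down and 6.01% up. This count was added after its values were seen. Slc2a1 fell from 95.2, 85.3 and 86.0 CPM to 22.7, 24.8 and 19.8 CPM (log2 fold change -2.0, SE 0.14, adjusted p = 4.37e-07). No d10 callus came near a d7 callus. Ak4 fell to 7.89, 6.30 and 5.44 CPM (-2.34, SE 0.28, adjusted p = 3.2e-05). Pfkl fell to 67.3, 59.1 and 57.6 CPM (-1.39, SE 0.16), and Pfkp fell from 75.6, 84.7 and 71.4 CPM to 36.2, 34.7 and 36.9 CPM (-1.12, SE 0.13).

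Bnip3 fell to 24.7, 27 and 29.7 CPM (-1.78, SE 0.21), and Pgam1 from 56.5, 60.0 and 61.9 CPM to 23.8, 21.3 and 23.1 CPM (-1.40, SE 0.17). Hif1a fell by 1.89 and Eno1 by 1.45 on the log2 scale. The 2 that rose were Epas1 and Ndrg1, a stress-responsive gene. The DIO d7 libraries enter both this comparison and that of the diets on d7. The chondrocyte markers fell over the same interval (13 of 16 called, median -3.02), while 8 of 10 osteoclast, 8 of 14 osteoblast, 9 of 10 B lineage and 7 of 10 adipocyte markers rose. What part they had in the result was not tested.

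Later in DIO callus, edgeR called none of the 37 from d10 to d14 (0.759% of genes were; 3 unadjusted, against 17.7%). Library totals alone moved the calls over all genes there from 76.7% to 88.1% higher. From d14 to d21, 5 rose and 1 fell, against 19.6% of genes called, a share close to that of the 37. Of all genes 10.6% were called up and 9.03% down. Bnip3l rose from 99.6, 131 and 106 CPM to 307, 194 and 225 CPM (log2 fold change 1.12, SE 0.17, adjusted p = 0.00054). Mxi1 rose from 50.8, 58.7 and 43.6 CPM to 83.6, 89.0 and 87.2 CPM (0.78, SE 0.16, adjusted p = 0.0039). Both groups of values were apart on the 2 days.

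Hk1 rose from 60.6, 76.5 and 82.9 CPM to 115, 164 and 143 CPM (0.95, SE 0.23, adjusted p = 0.0098), and the histone demethylase Kdm3a from 57.7, 49.5 and 49.9 CPM to 78.8, 66.2 and 66.1 CPM (0.44, SE 0.12, adjusted p = 0.022). Ddit4, an inhibitor of mTOR signalling, was at 57, 47.6 and 65.4 CPM on d14 and at 258, 308 and 53.1 CPM on d21 (1.88, SE 0.41, adjusted p = 0.0051). Its replicate 3 on d21 lay within the d14 range, so the rise rests on 2 mice. Tpi1, triose phosphate isomerase, fell from 490, 927 and 454 CPM to 288, 469 and 270 CPM (-0.85, SE 0.27, adjusted p = 0.035), and its groups overlapped.

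The erythroid markers rose over the same interval, from a summed 4030 to 13019 CPM on d14 to 27462 to 39017 CPM on d21, with 7 of 11 called (median 2.2) and none lower. Klf1, Rhag and Tspo2 of that list were at 0 in at least 1 library of the 30. Neutrophil markers rose too (7 of 13 called). The muscle markers went from 7988 to 40742 CPM on d14 to 614 to 20143 CPM on d21. Of the 16, 0 were above 0 (median -1.52) and 2 were called lower. Aldoa was at 508, 2805 and 769 CPM on d21. Called higher were 3 of 10 B lineage markers. Called lower were 4 of 14 osteoblast, 3 of 10 osteoclast (1 was higher), 2 of 16 chondrocyte and 1 of 10 endothelial markers. What part all these markers had in these results was not tested.

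**Figure D5:**
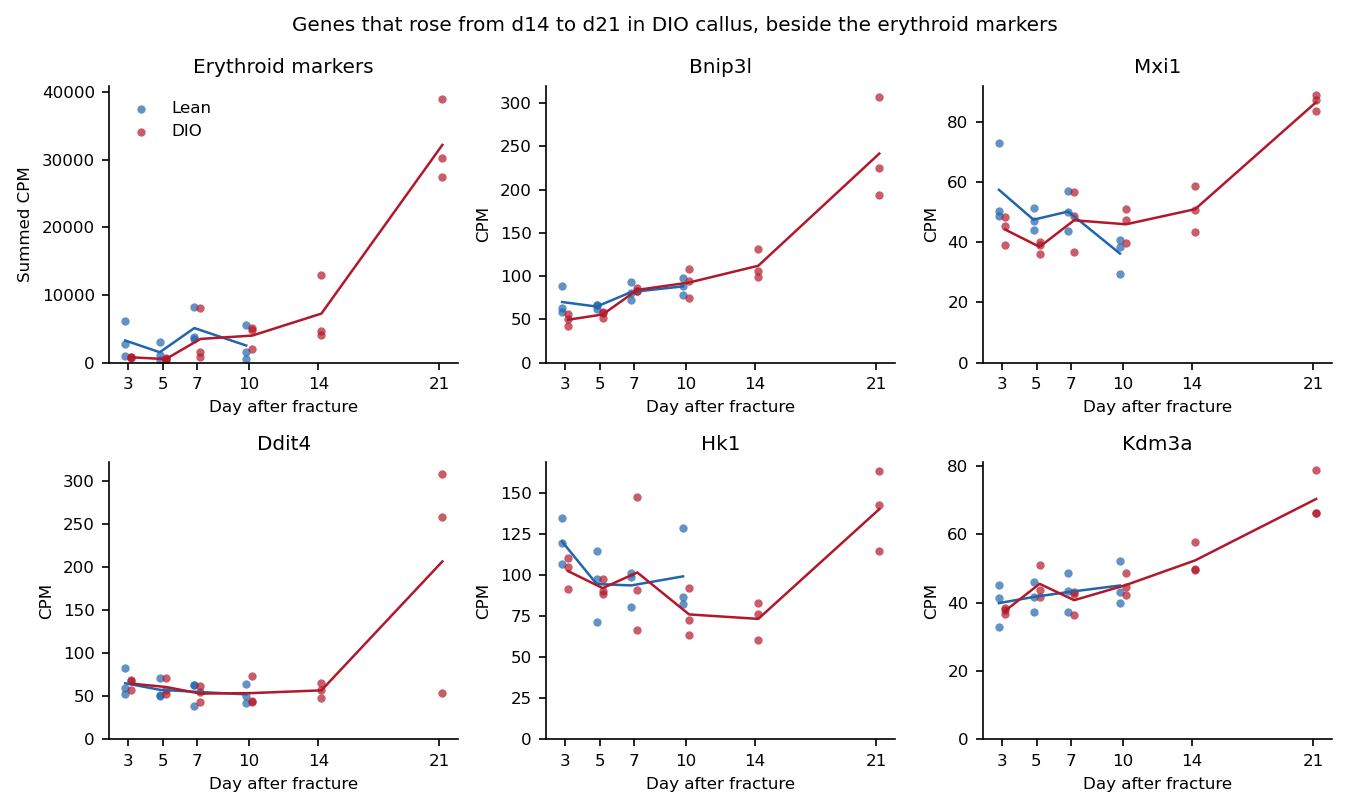
Summed erythroid markers and the 5 genes that rose from d14 to d21 in DIO callus (CPM) by day after fracture, each point 1 mouse and lines through the means of 3 mice (blue Lean, red DIO). Erythroid markers, Bnip3l, Mxi1, Hk1 and Kdm3a have all 3 d21 points above the d14 points, and Ddit4 has 1 d21 point at 53.1 CPM.

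Across the whole DIO course, d21 differed from d3 for 28 of the 37 genes, 6 higher and 22 lower, against 45.3% of genes called, 23.5% up and 21.8% down. Over the same interval 11 of 11 erythroid, 11 of 13 neutrophil, 10 of 10 B lineage, 9 of 10 osteoclast and 9 of 10 adipocyte markers rose. Erythroid sums were 730 to 828 CPM on d3 and 27462 to 39017 CPM on d21. Of 16 muscle markers 5 fell. Other lists went both ways: osteoblast 7 up and 4 down, chondrocyte 2 and 5, endothelial 1 and 5, monocyte and macrophage 1 and 4. Whether they had a part in it was not tested. Bnip3l was 4.95-fold higher (log2 fold change 2.31, SE 0.18, adjusted p = 2.85e-07). Slc2a1 (-1.52), Eno1 (-1.64), Ak4 (-2.39), Pfkl (-1.29) and Pgam1 (-1.28) were lower, as were 10 of the 13 glycolytic enzymes in all. From d10 to d21, 7 rose and 9 fell, against 43.4% of genes called, a share close to that of the 37. From d3 to d10, 4 rose and 12 fell, against 21.8%, and library totals alone moved the calls over all genes from 50.6% to 31.4% higher. Over that interval 13 of 16 chondrocyte, 9 of 11 erythroid, 9 of 10 osteoclast and 9 of 10 B lineage markers rose. So did 8 of 14 osteoblast and 5 of 10 adipocyte markers, while 5 of 14 monocyte and macrophage markers fell. The part of these markers was not tested.

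Within families, levels were compared per kilobase of exon, as a description without a test. Many of the shares depend on the exon length taken. Only those of Hif1a in DIO d7 and DIO d10 callus are also given with longest transcripts, below. All other shares, also those of the lactate transporters, are given with all exons alone. Slc2a1 made up 26.6% ± 9.0 (SD, n = 3) of the summed level of Slc2a1, Slc2a3 and Slc2a4 in Lean d7 and 64.8% ± 15 in DIO d7 callus, then 46.6% ± 34 in Lean d10 (85.4%, 26% and 28.5%, with a mean of 27.2% without replicate 1) and 20.1% ± 1.8 in DIO d10 callus, where Slc2a4, the transporter of muscle and fat, made up 66.5% ± 4.5. Skeletal muscle markers summed to 30579 to 41088 CPM in DIO d10 callus. Among the HIF alpha genes, Hif1a made up 54.3% ± 4.3 in Lean d3 and 25.7% ± 6.0 in Lean d10 callus, and 63.3% ± 9.8 in DIO d7 and 23.6% ± 3.4 in DIO d10 callus. Epas1 held nearly all of the rest, and Hif3a at most 1.12% on average in any group. The first day given differs between the diets (d3 for Lean, d7 for DIO). Per kilobase, Hif1a and Epas1 were at 20.8 and 17.6 CPM in DIO d3 callus and at 13.7 and 19.7 CPM in Lean d7 callus.

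Of 93 further genes of glycolysis, glucose handling and the HIF pathway, 90 were tested on d7 and 6 were called, all higher in DIO callus, against 2.32% of all genes. They were P4ha2 (1.46), Fam162a (1.37), Tmem45a (1.54) and Loxl2 (1.14), and, named after their values were seen, P4ha1 (0.83) and Plod2 (1.31). P4ha1, P4ha2, Plod2 and Loxl2 encode enzymes that modify or cross-link collagen. The median of the 90 was 0.01, with 47 above 0. None was called on d3 or d10, and on d5 Angptl4, a regulator of lipoprotein lipase, was called (log2 fold change 1.08), 1 of 90 beside 1.08% of all genes.

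Some values are less certain because of shared sequence. Of the 37 genes, 12 have a stretch of at least 100 bases that is at least 95% identical to another gene, among them Gapdh, with 144 such genes, Bnip3 over 94.2% of its longest transcript, Eno1 over 85.6% and Pgk1 over 68.8%. How the counting treated reads that fit several places is not given in the sources used here. Exons of 14 genes overlap a gene on the other strand, Ankrd37 over 26.4%, Higd1a over 22.5% and Bnip3 over 22.3% of their exon bases. The lowest counts were 5 for Ankrd37 and 14 for Car9, so their folds rest on few reads, while Slc2a1 had at least 280 counts in every library.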

How the data were processed

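RNA was measured by sequencing poly(A) libraries of 30 calli. Per the labels and the methods, the authors made the reads with bcl2fastq, trimmed them with BBDuk, aligned them to GRCm38 with HISAT2 2.1.0 and deposited raw counts per gene from HTSeq. Which HTSeq version, strand setting and annotation were used is not given in the sources used here. Genes were named by Ensembl identifier from GENCODE M21 (42548 of 43629 found). Totals ran from 13247122 to 26365620 counts, and counts give the precision of each value.

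Everything else was computed here in R 4.3.3. Counts were filtered with filterByExpr, scaled by TMM and tested by quasi-likelihood in edgeR 4.0.16 (F-test, two-sided), with Benjamini-Hochberg adjustment over all genes tested and a threshold of 0.05. "Called" means an adjusted p under 0.05. Diets were compared in 6 libraries per day, days in the 12 Lean or 18 DIO libraries, and the change of the diet difference in 24. Alternatives were RLE size factors, library totals alone, no filter, all 30 libraries in 1 fit, a replicate block, leaving out each mouse, and DESeq2 1.42.0. Replicates are labelled biological repeats. Their number was not taken to pair the mice, as no fit had every same-number correlation over 0.1. That rule cannot tell whether libraries of the same number shared a batch. No 2 libraries of a group were alike within sampling noise. The scripts were tested on simulated data. Near-identical stretches were found with BLAST 2.17.0, and tables and figures were made in Python 3.11.15 with pandas 2.3.3 and matplotlib 3.10.9.

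The genes and lists were chosen with earlier results of these data known. Up to 6 of the 37 genes per comparison, those with the smallest p, are given library by library, and up to 4 of the further genes.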

Additional observations from a re-analysis of the deposited data

Results flagged for a closer look

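The diet difference changed between days for 14 genes from d7 to d10, by edgeR's interaction test with Benjamini-Hochberg adjustment over 17057 genes. The change, on the log2 scale as the DIO over Lean difference on d10 minus that on d7, was as follows: Pfkl (-2.30), Pfkp (-1.61), Aldoc (-2.41), Pgk1 (-1.04), Pgam1 (-1.43), Eno1 (-2.0), Slc2a1 (-2.58), Slc16a3 (-1.17), Hif1a (-1.45), Adm (-2.71), Car9 (-2.91), Bnip3 (-2.10), Higd1a (-1.64) and Ak4 (-3.01). Each was toward lower in DIO callus. Without Lean d10 replicate 1, whose chondrocyte markers stood apart, they ran from -2.49 to -0.97, each smaller in size, and Car9 and Hif1a were no longer called.

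Over d3, d5, d7 and d10 together the diet difference changed for 12 genes by the same test. Their adjusted p-values were as follows: Pfkl (0.0218), Pfkp (0.0283), Aldoc (0.0352), Pgk1 (0.0395), Pgam1 (0.0356), Eno1 (0.0182), Slc2a1 (0.0272), Slc16a3 (0.0486), Adm (0.032), Bnip3 (0.0182), Higd1a (0.0283) and Ak4 (0.027). Groups of 3 mice are too small for a test of outlying mice.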

How the results depend on the processing

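For each count, up to 6 called genes with the smallest p were followed, 63 values in all. None changed direction. They were recomputed under 6 alternatives and under the omissions of 1 mouse that gave the lowest value, the highest value or the largest adjusted p, other omissions not being counted, and of these 531 values 511 stayed past the threshold and 20 did not. The counts of genes called between d3, d10 and d21 in DIO callus stayed within 1.5 times under every alternative, as did those from d3 to d10 in Lean callus. On d3 DESeq2 called 1 gene. On d5, 1 gene was called, against 4 without the filter, 0 with the replicate block, 0 with all 30 libraries in 1 fit and 9 with DESeq2, and leaving out 1 mouse gave 0 to 5. On d7 leaving out 1 mouse gave 2 to 18 of 17, and the other alternatives 16 to 22. Over any days in Lean callus library totals alone gave 15 against 9. From d7 to d10 in Lean callus, 2 were called, against 1 without the filter, 4 with all 30 libraries in 1 fit, 6 with DESeq2, and 0 to 4 leaving out 1 mouse. The diet difference over d3 to d10 changed for 0 to 13 genes leaving out 1 mouse, against 12. The cause of these shifts was not tested. Each omission of a mouse also leaves fewer libraries in the fit.

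The replicate numbers were not taken to pair the mice. With the replicate block 16 genes were called on d7 against 17 without it. The block changed other counts by no more than 1.5 times, d5 excepted. In the Lean fit 9 of 12 libraries correlated best with their own number. There the mean correlation was 0.14 for the same number and -0.07 for other pairs. Over all genes, DESeq2 called 944 against 366 on d7, 1150 against 170 on d5 and 728 against 0 on d3. With longest transcripts in place of all exons, Hif1a made up 67.9% in DIO d7 and 27.5% in DIO d10 callus. With 3 mice per group, precision is limited by low counts, as in Ankrd37 and Car9, and by the spread between mice, as in Aldoa and Ddit4.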

Other observations

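Among the 92 further genes of glycolysis, glucose handling and the HIF pathway tested in DIO callus, 20 rose and 29 fell from d10 to d21, against 43.4% of all genes called. Those with the smallest p were Cxcr4, a chemokine receptor (log2 fold change 2.11), the monocarboxylate transporter Slc16a1 (2.08), Minpp1, a phosphatase (1.05), and Rcor2, a chromatin corepressor (-2.34). Isoenzymes of the 37 genes went both ways. Hk3, the hexokinase of leukocytes (1.80), Pklr, the pyruvate kinase of liver and red cells (3.17), and Slc2a3 (1.5) rose, while the muscle isoenzymes Eno3 (-2.28) and Pfkm (-1.51), the neuronal enolase Eno2 (-1.49) and Ldhb (-1.12) fell. Named after their values were seen, 5 enzymes of the pentose phosphate pathway rose: Rpia (1.45), Tkt (1.17), G6pdx (0.89), Taldo1 (0.76) and Pgd (0.50). Bpgm, which makes the 2,3-bisphosphoglycerate of red cells, rose by 2.31. Over the same interval 11 of 11 erythroid, 11 of 13 neutrophil, 10 of 10 B lineage and 9 of 10 adipocyte markers rose. Those that fell were 16 of 16 chondrocyte, 9 of 16 muscle, 7 of 10 osteoclast, 6 of 14 osteoblast and 4 of 10 endothelial markers. Their part in the result was not tested.

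Within the transporters of lactate, Slc16a3 made up 69.5% ± 3.5 (SD, n = 3) of the summed level per kilobase of Slc16a1, Slc16a3 and Slc16a7 in DIO d7 callus and 22.5% ± 7.7 in DIO d21 callus, where Slc16a1 made up 76.0% ± 7.9. Lean d7 callus was at 53% ± 1.3 for Slc16a3.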
